A study of Mus musculus with 25 samples.

Results

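Genes of splicing factors and heterogeneous nuclear ribonucleoproteins (hnRNPs) were followed through a dose series of hypochlorous acid (HOCl) in mouse macrophage cells. They were taken by gene symbol: every gene whose symbol begins with Srsf, Hnrnp or Sf3, together with Rbm39, Rbm5, Rbm25, Tra2a, Tra2b, Ddx5, Ddx17, Clk1, Clk4, U2af1 and U2af2. On the array 49 such genes had a probe set that carries a single symbol, of 18193 genes with one, and these genes held 169 of the 45037 probe sets tested. They comprised 12 genes of SR and Tra2 proteins, 19 of hnRNPs, 11 of SF3 and U2AF subunits, 3 of RBM proteins and the pairs Ddx5 with Ddx17 and Clk1 with Clk4. A further 7 probe sets that carry several symbols, among them all those of Hnrnpa3, were set aside. No value enters the symbol rule, but the families and the single genes were selected on earlier log2 changes of these arrays with dose and on the parting of probe sets of one gene, so those values are a description and the counts are given beside the same counts over all probe sets.

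The cells were RAW 264.7, a macrophage-like line from a virus-induced mouse tumour, grown to near confluence in DMEM with fetal bovine serum, HEPES, penicillin and streptomycin. HOCl, the oxidant that myeloperoxidase of neutrophils makes, was added to this medium for 6 h at 3 lower doses, 0.14, 0.35 and 0.7 mM, or 4 higher ones, 1.4, 2.1 mM, 2.8 mM and 3.5 mM, and cells at 0 mM had medium without it. Total RNA was measured on 25 Affymetrix Mouse Genome 430 2.0 arrays, 3 at each of the 7 doses and 4 at 0 mM, and the labels call the replicates biological. Values are log2 signals per probe set on a scale where the median of each array is 0, so a value tells a probe set's signal relative to the rest of its array and not an amount of RNA per cell. Fewer cells of a kind and less RNA per cell cannot be told apart in such bulk RNA.

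Introns are removed from transcripts by the spliceosome, a machine of small nuclear RNAs and proteins that is built anew on each intron. U2AF reads the end of the intron, and the SF3a and SF3b complexes, as parts of the U2 particle, hold its branch point. SR proteins and the related Tra2 proteins mostly promote the use of exons, hnRNPs often oppose it, Clk kinases phosphorylate SR proteins, and Ddx5 and Ddx17 are RNA helicases that work in transcription and splicing. Transcripts of many of these genes are known to be spliced in alternative ways themselves, and for that reason the probe sets of a gene were also set against each other.

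All 10 macrophage markers examined were measured, with mean levels of 2.57 to 8.18, while 6 lymphocyte markers lay between -0.99 and 1.14 and 8 fibroblast and epithelial markers between -1.24 and 1.49. Arrays of the same dose correlated at r of 0.953 to 0.997 across probe sets. The number of arrays limits the precision, and probe set levels carry no depth. Added Bacillus control transcripts divided the arrays: the mean of their 8 5′ probe sets was at least 1.75 on 14 arrays, all those of 1.4 mM and above and replicate 3 of 0.35 and of 0.7 mM, and at most 1.12 on the other 11. Spike level and dose therefore coincide from 1.4 mM upwards and cannot be told apart there, whereas 3.5 and 2.8 mM share the high level. Replicate 1 of 0 mM stood apart, with 123 of all probe sets more than 3 log2 units below every other array, so counts against 0 mM are also given without it.

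Many of these genes were lower at the highest dose than at the one below it. At 3.5 mM, 41 of the 169 probe sets were lower than at 2.8 mM (24.3%) and 3 were higher (limma, Benjamini-Hochberg adjusted p under 0.05), beside 5.66% lower and 5.59% higher over all probe sets. Together 44 of 169 (26%) were called, against 11.2% of all probe sets. The median log2 change of the 169 was -0.38, against 0.04 over all. Falls reached 13 of 58 hnRNP probe sets, 9 of 44 of SR and Tra2 proteins, 16 of 23 of RBM proteins and 1 of 9 of Ddx5 and Ddx17, while the 32 of SF3 and U2AF subunits had 2 lower and 2 higher and the 3 of Clk1 and Clk4 had 0.

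Averaged over the brightest probe set of each of the 49 genes, the arrays stood at 4.86, 4.38 and 4.39 at 3.5 mM, against 5.14, 5.02 and 4.97 at 2.8 mM. The 3 arrays of 3.5 mM were all below the 3 of 2.8 mM, and replicate 1 of 3.5 mM lay nearest to them. The 0 mM arrays, at 4.32, 4.72, 4.97 and 4.60, spanned both. For 63 of the 169 probe sets (37.3%) every 3.5 mM array lay below every 2.8 mM array, and for 2 (1.18%) above; over all probe sets these shares were 11.3% and 14.4%. The difference between the 3′ and 5′ actin control probe sets, a measure of RNA integrity and labelling, was 0.43, 0.68 and 0.28 at 3.5 mM and 0.56, 0.45 and 0.46 at 2.8 mM, so the doses overlapped in it. The comparison of 3.5 with 2.8 mM was added after the data were seen. In place of 44, 29 probe sets were called when either 2.8 mM replicate 3 or 3.5 mM replicate 2 was left out, 27 when 3.5 mM replicate 3 was, and 27 in a fit of those 6 arrays alone.

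**Figure D1:**
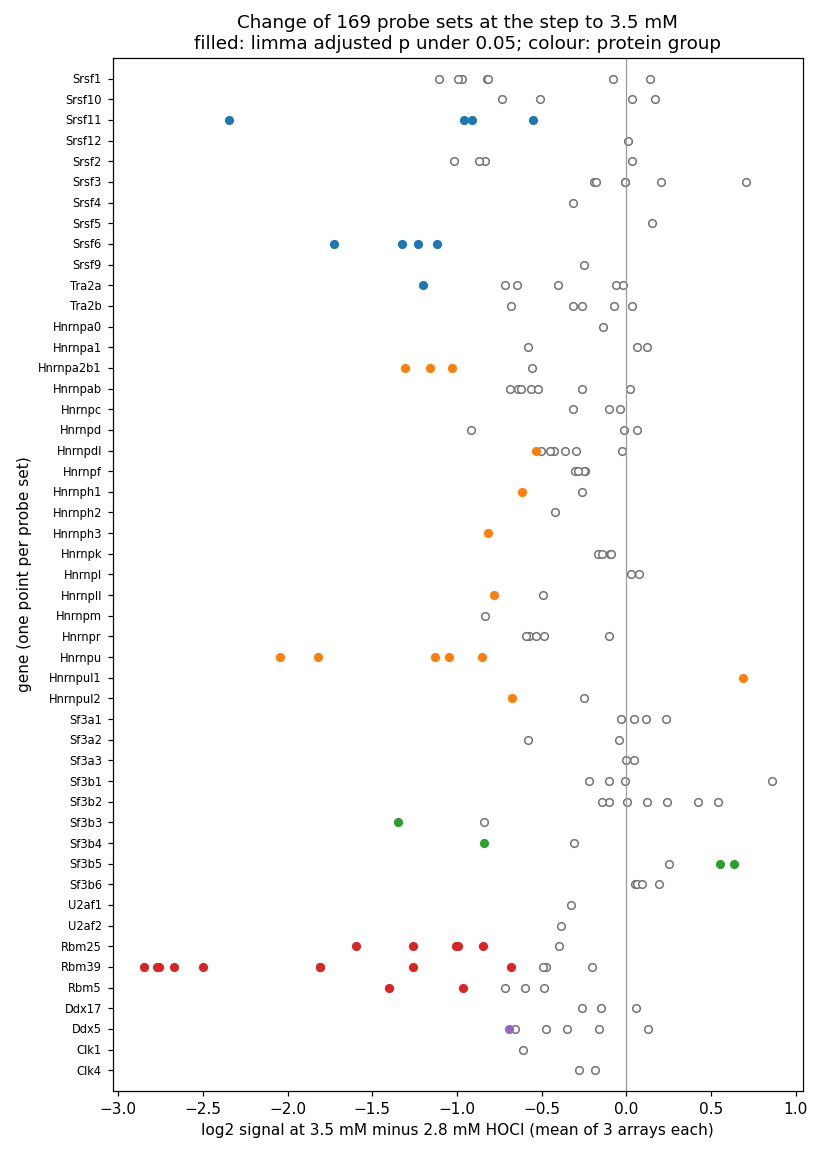
Log2 signal at 3.5 mM minus 2.8 mM HOCl (horizontal axis, difference of the means of 3 arrays each) for the 169 probe sets of 49 genes (1 row a gene), with filled points for a limma adjusted p under 0.05 and a colour for each protein group. Filled points lie mostly left of 0, furthest for Rbm39, Srsf11 and Hnrnpu, while those of Sf3b5 and Hnrnpul1 lie to the right.

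Among the 37 genes with 2 or more probe sets, every probe set fell at this step in 3 (8.11%): Hnrnpu (5 of 5), Srsf11 (4 of 4) and Srsf6 (4 of 4). Over all 9010 genes with 2 or more the share was 1.75%, with a median of 2 probe sets a gene there and 4 here. Some calls in these genes were lost on omission of 1 array: Hnrnpu 1423050_s_at (adjusted p up to 0.128) and Srsf11 1439095_at (up to 0.161). So were those of Srsf6 1416720_at, 1416721_s_at and 1447898_s_at (up to 0.109, 0.109 and 0.175). In a fit of both doses alone, these Srsf6 probe sets and 1448454_at were not called (adjusted p = 0.131, 0.119, 0.16 and 0.0823). The lone probe set of Hnrnph3, an hnRNP of the H and F group, fell too (-0.81, SE 0.208, adjusted p = 0.0139; up to 0.112 without 2.8 mM replicate 2 or 3). Hnrnpu, also known as scaffold attachment factor A, binds nuclear RNA and chromatin. Its brightest probe set read 6.22, 5.68 and 5.40 at 3.5 mM, against 6.76, 6.99 and 6.93 at 2.8 mM and 6.62, 6.01, 6.86 and 5.84 at 0 mM. All 3 arrays at 3.5 mM were below those at 2.8 mM, but they overlapped the 0 mM arrays. The log2 change against 2.8 mM was -1.13 (SE 0.211, adjusted p = 0.00175). Its probe set 1434390_at fell further, to 0.53, -0.27 and 0.51 at 3.5 mM, against 2.45, 2.24 and 2.22 at 2.8 mM and 2.08, 2.51, 2.01 and 2.12 at 0 mM, and here the 3.5 mM arrays were below both other groups. That change was -2.05 (SE 0.249, adjusted p = 3.92e-05). The 3.5 mM values lie within the range of the lymphocyte, fibroblast and epithelial marker levels.

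Srsf11, an SR protein that interacts with U2AF and other SR proteins, read 5.16, 4.78 and 4.90 on its brightest probe set at 3.5 mM, against 5.78, 6.01 and 5.93 at 2.8 mM and 5.39, 5.54, 5.48 and 5.28 at 0 mM. The 3.5 mM arrays were the lowest of the 3 groups and the 2.8 mM arrays the highest. The change was -0.96 against 2.8 mM (SE 0.137, adjusted p = 0.000185) and -0.47 against 0 mM (adjusted p = 0.024). The call against 0 mM was lost on omission of 0 mM replicate 2 or of 3.5 mM replicate 2 or 3 (adjusted p up to 0.108). Its dimmer probe set 1430077_at changed by -2.35 against 2.8 mM (SE 0.443, adjusted p = 0.00188), to 0.40, -0.13 and -0.19 at 3.5 mM, within the range of those marker levels. Srsf6, an SR protein that binds exonic enhancers, was at 5.84, 4.07 and 4.17 at 3.5 mM, against 6.20, 6.54 and 6.51 at 2.8 mM and 5.62, 5.32, 6.03 and 5.24 at 0 mM. Replicate 1 of 3.5 mM stood well above the other 2 and inside the 0 mM range, yet below every 2.8 mM array. The change was -1.72 (SE 0.295, adjusted p = 0.000909), and the same order of the 3.5 mM arrays appeared on its 3 other probe sets.

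The promoters of Hnrnpu, Srsf11 and Srsf6 are shown because all of their probe sets were called lower at the step in the fit of all 25 arrays. Each window holds 300 bases around the RefSeq start site on GRCm38.p6 and is written 5′ to 3′ along the gene, in lower case, with capitals for matches to GAANNTTC (the core of a heat shock element), TGACNNNGC (the core of an antioxidant response element), CCAAT or CCGGAAG (an ETS family site) on either strand. Hnrnpu lies on the minus strand at chr1:178337766-178338065, Srsf11 on the minus strand at chr3:158036557-158036856 (the first of 2 windows listed) and Srsf6 on the plus strand at chr2:162931258-162931557.
Hnrnpu: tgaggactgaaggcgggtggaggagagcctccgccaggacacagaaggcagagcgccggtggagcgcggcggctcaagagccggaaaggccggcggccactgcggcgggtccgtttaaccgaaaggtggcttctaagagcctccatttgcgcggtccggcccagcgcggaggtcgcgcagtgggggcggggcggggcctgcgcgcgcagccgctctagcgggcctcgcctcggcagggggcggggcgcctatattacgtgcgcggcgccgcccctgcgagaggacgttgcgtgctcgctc
Srsf11: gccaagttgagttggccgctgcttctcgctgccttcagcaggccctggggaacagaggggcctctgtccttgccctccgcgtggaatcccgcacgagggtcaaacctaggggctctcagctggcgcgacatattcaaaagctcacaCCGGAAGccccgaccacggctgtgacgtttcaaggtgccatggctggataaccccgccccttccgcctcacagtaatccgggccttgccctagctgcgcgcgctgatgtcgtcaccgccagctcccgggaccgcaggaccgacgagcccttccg
Srsf6: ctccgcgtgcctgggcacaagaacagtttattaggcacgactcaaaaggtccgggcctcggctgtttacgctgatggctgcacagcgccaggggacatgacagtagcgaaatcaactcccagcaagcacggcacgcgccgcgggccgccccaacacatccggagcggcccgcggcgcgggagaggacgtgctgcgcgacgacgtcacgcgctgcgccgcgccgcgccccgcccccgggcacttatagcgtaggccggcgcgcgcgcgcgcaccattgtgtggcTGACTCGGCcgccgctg
None of the 4 motifs occurs in the Hnrnpu window. That of Srsf11 holds 1 match to CCGGAAG and that of Srsf6 holds 1 to TGACNNNGC. Over the 43 of the 49 genes with a promoter in the RefSeq table, CCGGAAG was found in 12 (27.9%), against 9.12% of 27025 promoters of the same length. CCAAT was found in 22 (51.2%, against 37.9%), TGACNNNGC in 8 (18.6%, against 12.5%) and GAANNTTC in 5 (11.6%, against 7.95%). The motifs can overlap only where their letters allow it, and a match describes letters, not binding.

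Rbm39, an RNA-binding protein related to U2AF that also acts as a transcription coactivator, has 12 probe sets here, of which 9 fell at the step to 3.5 mM. The brightest, 1446147_at, read 2.05, 1.52 and 1.52 at 3.5 mM, against 4.31, 4.47 and 4.63 at 2.8 mM and 3.30, 5.33, 3.56 and 5.26 at 0 mM. The 3.5 mM arrays were the lowest of all 25 arrays, whose values at the doses from 0.14 to 2.8 mM ranged over 3.06 to 5.26. The change was -2.77 against 2.8 mM (SE 0.415, adjusted p = 0.000297), that is 0.146 times the signal, and -2.67 against 0 mM (adjusted p = 0.000161). At 0 mM itself the gene was split, with replicates 1 and 3 near the 0.14 mM arrays (3.49, 3.74 and 3.63) and replicates 2 and 4 above them.

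Other probe sets of Rbm39 did not follow as far. Probe set 1426671_a_at was at 3.60, 3.19 and 3.11 at 3.5 mM, against 4.31, 3.13 and 3.08 at 2.8 mM and 2.79, 4.14, 3.16 and 3.78 at 0 mM, so that the groups overlapped (-0.20 against 2.8 mM, SE 0.362, adjusted p = 0.826). Probe set 1438397_a_at was at 2.98, 2.66 and 2.75 at 3.5 mM, against 3.53, 3.46 and 3.44 at 2.8 mM and 2.28, 3.02, 2.30 and 3.05 at 0 mM. It fell by less than the brightest one (-0.68 against 2.8 mM, adjusted p = 0.0343; up to 0.123 on omission of any 2.8 mM array or of 3.5 mM replicate 2 or 3) and was within the 0 mM range. Within each array, 1438397_a_at minus 1446147_at was 0.93, 1.14 and 1.24 at 3.5 mM, against -0.79, -1.01 and -1.18 at 2.8 mM and -1.02, -2.31, -1.26 and -2.20 at 0 mM. The 3.5 mM arrays lay above all those of 2.8 and of 0 mM. Relative to 0 mM the difference grew by 2.80 (SE 0.24, adjusted p = 3.68e-07), and for 1426671_a_at the corresponding value was 2.50 (SE 0.292, adjusted p = 1.02e-05). Both pair calls at 3.5 mM used the same reference probe set. An offset common to all probe sets of an array cannot move such a difference. The probe positions in the transcripts were not used here, so the part of Rbm39 RNA that each probe set reads is not given.

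**Figure D2:**
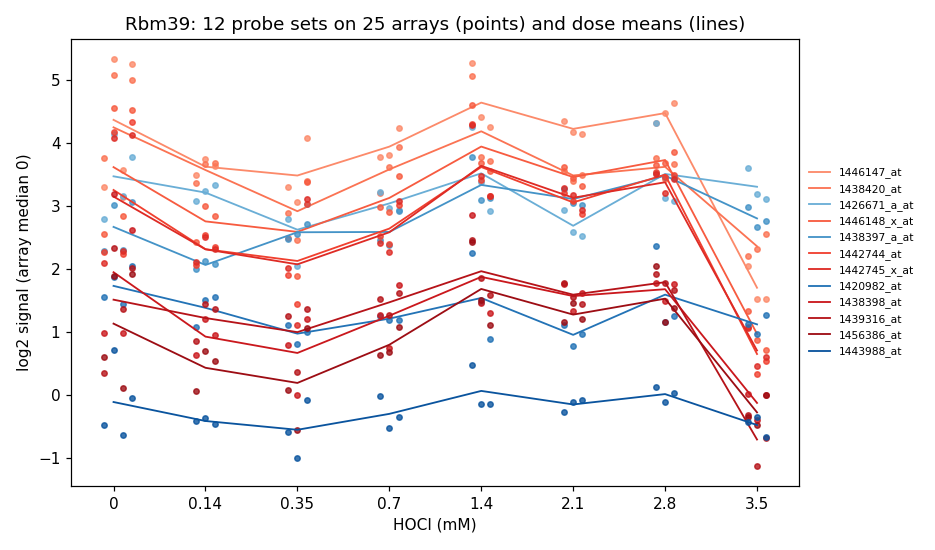
Log2 signal (vertical axis, array median 0) of the 12 Rbm39 probe sets against HOCl dose (horizontal axis, equally spaced), with points for the 25 arrays and lines through dose means. The 8 probe sets in red, lower at 3.5 mM than at both 2.8 and 0 mM by the limma test, drop at 3.5 mM, while the 4 in blue change by -0.68 to -0.20 against 2.8 mM.

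Rbm25, a splicing regulator with an RE/RD-rich domain, was lower on 5 of its 6 probe sets at 3.5 mM. Its brightest, 1428908_at, read 2.90, 2.04 and 2.33 at 3.5 mM, against 3.31, 3.89 and 3.84 at 2.8 mM and 2.70, 2.55, 2.98 and 2.27 at 0 mM. The 3.5 mM arrays were below those of 2.8 mM and overlapped those of 0 mM, and at 2.8 mM the gene was higher than at 0 mM (1.05, adjusted p = 0.0107; lost without 2.8 mM replicate 2 or 3, adjusted p up to 0.0663). The step was -1.26 (SE 0.272, adjusted p = 0.00492). Rbm5, which regulates splicing of apoptosis genes, fell on 2 of 5 probe sets, the brightest at 2.97, 3.14 and 3.55 at 3.5 mM, against 3.34, 4.65 and 4.55 at 2.8 mM. Replicate 1 of 2.8 mM lay among the 3.5 mM arrays, so the groups overlapped, at a change of -0.97 (SE 0.3, adjusted p = 0.0415). This call was lost on omission of any 1 of 10 arrays, all 3 of 3.5 mM among them, with the adjusted p up to 0.24.

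Among the hnRNPs, Hnrnpa2b1, which binds and sorts RNA in the nucleus and cytoplasm, fell on 3 of 4 probe sets. Probe set 1433830_at read 3.48, 2.58 and 2.92 at 3.5 mM, against 3.93, 4.11 and 4.03 at 2.8 mM and 3.91, 4.24, 4.16 and 4.05 at 0 mM, with the 3.5 mM arrays below both (-1.03 against 2.8 mM, SE 0.217, adjusted p = 0.00419). The brightest, 1420365_a_at, had -0.56 and did not pass (adjusted p = 0.15). The calls of 1433829_a_at and 1434047_x_at (-1.31 and -1.16) were lost on omission of replicate 2 or 3 of either dose (adjusted p up to 0.106 and 0.125). In a fit of both doses alone 1433830_at, 1433829_a_at and 1434047_x_at were not called (adjusted p = 0.0523, 0.0857 and 0.0955). Hnrnpul2, a relative of Hnrnpu, read 2.16, 2.44 and 2.41 at 3.5 mM on its brightest probe set, 1415765_at, against 3.03, 3.05 and 2.96 at 2.8 mM. On this probe set the 22 arrays below 3.5 mM all lay within 2.77 to 3.21. The 3.5 mM arrays lay below that range, at a change of -0.67 (SE 0.0916, adjusted p = 0.000115). Its other probe set, 1434551_at, was already lower than 0 mM at 0.35, 2.1 and 2.8 mM (-1.11, -1.09 and -1.06, adjusted p = 0.0138, 0.00642 and 0.00829). The calls at 2.1 and 2.8 mM were lost with spike level as a term. Omission of 0.35 mM replicate 2 lost the call there, and omission of 2.8 mM replicate 2 or 3 lost that at 2.8 mM. At the step this probe set changed by -0.25 and was not called. Hnrnpll, an hnRNP L relative that regulates Cd45 splicing in lymphocytes, fell to 0.581 times its 2.8 mM signal (-0.78, adjusted p = 0.0017), and Hnrnph1, which binds runs of G, changed by -0.62 (adjusted p = 0.00475). Hnrnpul1, another relative of Hnrnpu, moved the other way, with 4.62, 4.98 and 5.14 at 3.5 mM, against 4.63, 4.04 and 4.01 at 2.8 mM (0.69, SE 0.161, adjusted p = 0.00856). Its 3.5 mM arrays overlapped those of 0 mM, 4.82, 5.09, 4.88 and 5.10, and the call was lost on omission of 2.8 mM replicate 2 or 3 or of 3.5 mM replicate 3 (adjusted p up to 0.0679).

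Of the 32 probe sets of SF3 and U2AF subunits 2 were lower and 2 higher at this step, a share near the 11.2% of all probe sets. Sf3b5, a small SF3b subunit, rose on 2 of 3 probe sets: the brightest was at 5.66, 5.71 and 5.66 at 3.5 mM, against 5.40, 4.91 and 4.81 at 2.8 mM and 5.42, 5.10, 5.20 and 5.25 at 0 mM. Its 3.5 mM arrays were above both other groups (0.63 against 2.8 mM, SE 0.119, adjusted p = 0.00178). The same probe set was called lower than 0 mM at 0.35 and 2.1 mM (-0.41 and -0.40, adjusted p = 0.0322 and 0.0215). Those calls were lost in 6 and 3 omissions of an array and with spike level as a term. Sf3b3, the large beta-propeller subunit of SF3b, had probe set 1430075_at at 1.44, 1.49 and 1.33 at 3.5 mM, against 2.54, 2.92 and 2.85 at 2.8 mM and 2.85, 3.34, 2.73 and 3.54 at 0 mM. This probe set was lowest at 3.5 mM of all doses (-1.35 against 2.8 mM, SE 0.191, adjusted p = 0.000169), and the brighter 1415985_at had -0.84 (adjusted p = 0.111). U2af1 and U2af2, the small and large subunit of U2AF, had -0.33 and -0.38 and did not pass.

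Set against 0 mM, the number of probe sets called changed with dose, and so did its direction. At 0.14 mM 1 of 169 was called, at 0.35 mM 16, at 0.7 mM 0 (27 with an unadjusted p under 0.05), at 1.4 mM 17, at 2.1 mM 21, at 2.8 mM 25 and at 3.5 mM 31. As shares of the 169 these were 0.592%, 9.47%, 0%, 10.1%, 12.4%, 14.8% and 18.3%. The shares over all probe sets changed with dose too, at 0.00444%, 6.43%, 0.133%, 7.81%, 13.4%, 11.9% and 9.32%. From 0.35 to 2.8 mM the totals for the 169 were near that background, nearest at 2.1 mM among the doses with calls. At 0.35 mM 14 were lower and 2 higher (all probe sets, 4.72% and 1.71%). At 1.4 mM 15 were higher and 2 lower (4.39% and 3.43%), at 2.1 mM 10 and 11 (7.26% and 6.09%), and at 2.8 mM 21 and 4 (5.64% and 6.26%). At 3.5 mM 6 were higher and 25 lower (3.93% and 5.4%). The F test over the 7 doses called 69 of 169 (40.8%), against 24.7% of all probe sets.

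These counts differ in how firmly they stand. Of the 31 calls at 3.5 mM, 20 held whichever array was left out, and 8 were lost with spike level as a term. At 2.8 mM 10 of 25 held in every omission, at 2.1 mM 6 of 21, at 1.4 mM 2 of 17 and at 0.35 mM 0 of 16. With spike level as a term 0 were called at 1.4, 2.1 and 2.8 mM. Only replicate 3 of 0.35 and of 0.7 mM separates spike level from dose in that fit. Changes from 1.4 mM upwards are therefore imprecise with the term, and their loss does not tell spike level from dose. On omission of single arrays the 0.35 mM count became 0 (replicate 2 of that dose), 2 (0 mM replicates 2 and 4), 6 (its own replicate 1), 10 (0.14 mM replicate 3, 2.1 mM replicates 1 and 2) or 33 (0 mM replicate 3). The count at 1.4 mM became 3 and 9 (its own replicates 1 and 2), 10, 28 and 7 (replicates 1, 3 and 4 of 0 mM), 11 (replicate 3 of 0.14 mM, replicates 2 and 3 of 2.1 mM) or 27 (replicate 1 of 3.5 mM). That at 2.1 mM became 11, 9 and 8 (its own 3 arrays), 33 (3.5 mM replicate 1) or 37 (0 mM replicate 3), and that at 2.8 mM became 11 and 12 (its own replicates 2 and 3), 16 (0 mM replicate 4) or 43 (0 mM replicate 3). At 0.7 mM it became 9 on omission of 0 mM replicate 3. Comparisons with 0 mM all share the same 4 arrays.

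**Figure D3:**
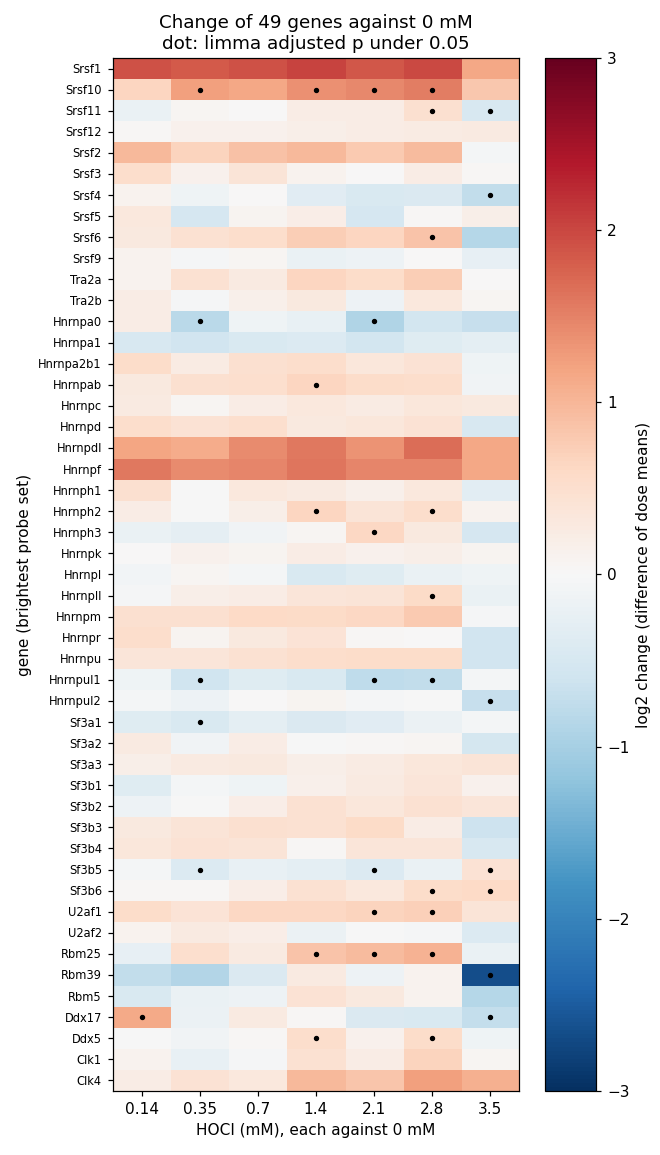
Log2 change against 0 mM (colour, difference of dose means) of the brightest probe set of the 49 genes (rows, by protein group) at 7 HOCl doses (columns), with a dot for a limma adjusted p under 0.05. Rows such as Rbm39 turn blue at 3.5 mM after pale or red fields at 1.4 to 2.8 mM, and the even red of Srsf1, Hnrnpdl and Hnrnpf goes with a low reading on 0 mM replicate 1 for those probe sets.

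Genes higher at the middle doses included Srsf10, an SR protein known as a splicing repressor when dephosphorylated. Its brightest probe set, 1418527_a_at, read 3.28, 2.66, 4.23 and 2.64 at 0 mM, 3.73, 4.00 and 3.85 at 0.14 mM, 4.45, 4.13 and 4.74 at 0.35 mM, 4.29, 3.92 and 4.89 at 0.7 mM, 4.16, 4.69 and 4.90 at 1.4 mM, 4.77, 4.63 and 4.52 at 2.1 mM, 4.87, 4.76 and 4.61 at 2.8 mM and 4.92, 3.65 and 3.47 at 3.5 mM. The 0 mM arrays were uneven, with replicate 3 as high as treated arrays, and replicate 1 of 3.5 mM stayed at the level of the middle doses. Against 0 mM it rose by 1.43 at 2.1 mM (SE 0.344, adjusted p = 0.0091) and 1.54 at 2.8 mM (SE 0.344, adjusted p = 0.0065), and both calls held in every omission of an array but not with spike level as a term. Hnrnpul1 fell to 0.591 times its 0 mM signal at 2.1 mM (-0.76, SE 0.151, adjusted p = 0.00273) and had -0.61 at 0.35 mM and -0.75 at 2.8 mM. Hnrnpa0, an hnRNP A family member, was at 4.11, 4.15 and 3.91 at 2.1 mM, against 5.29, 4.65, 5.14 and 4.73 at 0 mM (-0.89, SE 0.234, adjusted p = 0.0152; 0.0701 without 2.1 mM replicate 3). Its arrays of the dose lay below all of 0 mM. At 0.35 mM Hnrnpa0 had -0.81 (adjusted p = 0.0439), a call lost in 14 omissions of an array.

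Further calls on brightest probe sets were of less than 1 log2 unit. Hnrnph2 rose by 0.65 at 1.4 mM (adjusted p = 0.0171; 0.102 without 1.4 mM replicate 1), Hnrnph3 by 0.63 at 2.1 mM (adjusted p = 0.0371; up to 0.124 in the 6 omissions that lost it) and Hnrnpll by 0.57 at 2.8 mM (adjusted p = 0.00974). Hnrnpab, a CArG-box-binding hnRNP, passed narrowly at 1.4 mM (0.64, adjusted p = 0.0496), and Srsf6 at 2.8 mM (0.87, adjusted p = 0.0461). The Hnrnpab call was lost in 19 of the 25 omissions and the Srsf6 call in 18, with the adjusted p up to 0.155 and 0.16. Another Hnrnpab probe set, 1426114_at, was not the brightest and was lower at 2.1, 2.8 and 3.5 mM (-0.72, -0.67 and -0.65, adjusted p = 0.0106, 0.0187 and 0.0256). Those calls were lost in 1, 2 and 4 omissions and with spike level as a term. Sf3a1, a subunit of SF3a, had -0.46 at 0.35 mM (adjusted p = 0.0439), lost in 12 omissions, where it reached 0.251. Sf3b6, which contacts the branch point, was 0.60 higher at 3.5 mM (adjusted p = 0.0205; up to 0.141 without 3.5 mM replicate 1 or 0 mM replicate 2 or 4), and Sf3b5 0.43 (adjusted p = 0.0172; up to 0.0585 without 0 mM replicate 2 or 3.5 mM replicate 2). Both calls were also lost after quantile normalization and with only the arrays of both doses. That of Sf3b6 was lost with spike level as a term and with a replicate block too. In these alternatives the adjusted p reached 0.477 for Sf3b6 and 0.207 for Sf3b5. Srsf4, an SR protein, fell to 3.68, 2.98 and 3.10 at 3.5 mM, against 3.84, 4.04, 4.33 and 3.77 at 0 mM, and all its 3.5 mM arrays were below those of 0 mM (-0.74, SE 0.16, adjusted p = 0.00541). That call was lost with spike level as a term and with only the arrays of both doses (adjusted p up to 0.211). Hnrnpul2 changed by -0.68 (adjusted p = 3.91e-05) and kept its call in every omission.

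The helicase Ddx17 was the gene called at the lowest dose. Probe set 1437773_x_at read 5.89, 6.18 and 6.09 at 0.14 mM, against 5.00, 5.02, 4.86 and 4.78 at 0 mM, and its 3 arrays of the dose exceeded all 22 others. The log2 change was 1.14 (SE 0.17, adjusted p = 0.0354). Its second bright probe set, 1452155_a_at, read 5.75, 5.81 and 5.82 at 0.14 mM, against 5.80, 4.62, 4.70 and 4.50 at 0 mM. There 0 mM replicate 1 alone lay at the 0.14 mM level, and the test did not pass (0.89, adjusted p = 0.351). Without 0 mM replicate 1 the changes of the 2 probe sets were 1.17 and 1.19, each with an adjusted p of 0.0289. The third, 1439037_at, was dim, at 0.04 to 0.73 over the 25 arrays, and did not pass the F test. The call at 0.14 mM was lost, with an adjusted p up to 0.413, on omission of any 1 of 14 arrays: the 3 arrays of 0.14 mM, the 3 of 2.1 mM, replicates 2 and 4 of 0 mM, replicate 1 of both 0.35 and 0.7 mM, replicate 2 of both 1.4 and 3.5 mM, and replicates 2 and 3 of 2.8 mM. Of these arrays 9 are of doses outside the comparison, and over all probe sets only 2 passed at this dose.

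At 3.5 mM Ddx17 went the other way, and 1 of its probe sets was already called lower at 2.1 mM. Its 2 bright probe sets read 4.47, 4.15 and 4.00 and 3.95, 3.83 and 3.82 at 3.5 mM, against the 0 mM values above. Every 3.5 mM array was below every 0 mM array on both. The changes were -0.71 (SE 0.17, adjusted p = 0.0112; 0.0653 without 3.5 mM replicate 3) and -1.04 (SE 0.245, adjusted p = 0.0104), both lost with spike level as a term. Probe set 1452155_a_at was already lower than 0 mM at 2.1 and 2.8 mM (-0.89 and -0.88, adjusted p = 0.0199 and 0.0234). Those calls were lost on omission of replicate 2 or 3 of their own dose and with spike level as a term. They were also lost with only the arrays of both doses, as was the call of this probe set at 3.5 mM. Without 0 mM replicate 1 its changes at 2.1, 2.8 and 3.5 mM were smaller, at -0.60, -0.59 and -0.74 (adjusted p = 0.0429, 0.0507 and 0.0169). At the step from 2.8 to 3.5 mM 0 of the 3 Ddx17 probe sets were called, with changes of -0.26 to 0.06.

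Ddx5, the close relative of Ddx17, moved differently on different probe sets. The brightest, 1419653_a_at, was at 6.35, 6.12 and 6.12 at 3.5 mM, against 6.98, 6.83 and 6.86 at 2.8 mM, and the groups did not overlap (-0.69, SE 0.168, adjusted p = 0.0104; 0.0519 without 3.5 mM replicate 3). At 0.35 mM it was within 0.1 of its 0 mM mean (-0.10), while 1423645_a_at read 2.38, 1.31 and 2.53 at 0.35 mM, against 3.84, 4.22, 3.56 and 3.88 at 0 mM. Probe set 1423645_a_at was below all 0 mM arrays there, with a change of -1.80 (SE 0.345, adjusted p = 0.00759; 0.059 without 0.35 mM replicate 2). Within the arrays, 1423645_a_at minus 1419653_a_at was -3.84, -4.64 and -4.00 at 0.35 mM, against -2.38, -2.25, -2.77 and -2.44 at 0 mM.

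**Figure D4:**
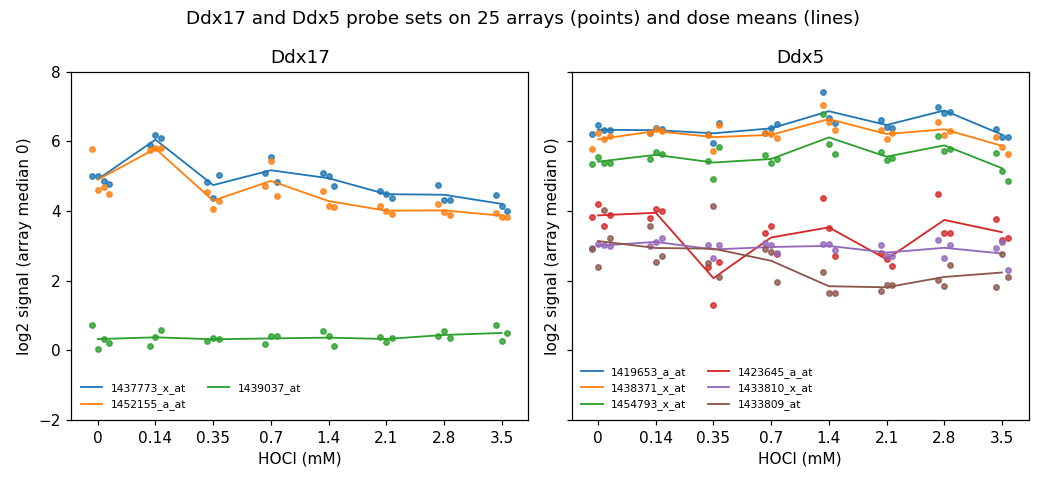
Log2 signal (vertical axis, array median 0) of the 3 Ddx17 and 6 Ddx5 probe sets against HOCl dose (horizontal axis, equally spaced), with points for the 25 arrays and lines through dose means. The 2 bright Ddx17 probe sets peak at 0.14 mM, where one reads 5.89, 6.18 and 6.09, and probe set 1423645_a_at of Ddx5 dips at 0.35 mM while the brightest has -0.10 there.

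Such parting of probe sets was measured over all genes. Each probe set was taken minus the brightest of its gene on the same array, which gave 120 differences for 37 of the 49 genes and 16752 over all genes. The F test over doses called 45 of the 120 (37.5%), against 31% of all, so the share among splicing factors was near that background. At 0.35, 1.4, 2.1, 2.8 and 3.5 mM 22, 14, 26, 23 and 18 of 120 were called, against 12.1%, 12.2%, 21.4%, 19.7% and 14.4% of all, and 0 at 0.14 and 0.7 mM. For the step to 3.5 mM it was 10 of 120, against 8.44%. The 45 belonged to 23 of the 37 genes, and 27 of them held in every omission of 1 array. With spike level as a term 23 were called, and with the actin 3′ to 5′ difference as a covariate 48. Omission of single arrays moved the 0.35 mM count of 22 to 14 and 35 (0 mM replicates 2 and 3) and 8 (its own replicate 2), the 1.4 mM count of 14 to 7 and 4 (its own replicates 1 and 3), the 2.1 mM count of 26 to 16, 15 and 13 (its own 3 arrays) and the 2.8 mM count of 23 to 14 (0 mM replicate 2), 10 and 9 (its own replicates 2 and 3). The step count of 10 became 20 and 18 on omission of replicate 1 of 2.8 and of 3.5 mM, and 6 on omission of replicate 2 of either dose or replicate 3 of 2.8 mM.

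The 8 differences with the lowest F test p came from Rbm39 (3), Ddx17, Srsf10, Ddx5, Sf3b1 and Rbm25. In Srsf10, 1449121_at minus 1418527_a_at was -3.57, -3.53 and -3.74 at 2.1 mM, against -0.71, -1.29, -1.84 and -1.47 at 0 mM, a change of -2.29 (SE 0.314, adjusted p = 0.000162; F test adjusted p = 0.000109). All 2.1 mM arrays were below all of 0 mM, as one probe set rose and the other had -0.85. Ddx5 had the F test adjusted p 0.000276 for the pair given above, with changes of -1.70 at 0.35 mM and -1.40 at 2.1 mM. In Ddx17 the difference was that of the dim 1439037_at and the bright 1437773_x_at, which were described above.

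In Sf3b1, the branch-point subunit of SF3b, the difference involved a dim probe set, with values at both 2.1 and 0 mM in the range of the lymphocyte, fibroblast and epithelial marker levels. This probe set, 1418561_at, was at -0.71, -0.45 and -0.63 at 2.1 mM, against 0.45, 1.41, 0.24 and 0.93 at 0 mM, while the brightest, 1449138_at, was at 5.73, 5.65 and 5.60 at 2.1 mM, against 4.84, 5.70, 5.40 and 5.60 at 0 mM. The dim one lay below all 0 mM arrays, and the brightest overlapped them. Their difference changed by -1.63 (SE 0.319, adjusted p = 0.00136) at 2.1 mM and by -0.11 at 3.5 mM (adjusted p = 0.873). In Rbm25, 1428907_at minus 1428908_at was -0.71, -0.60 and -0.84 at 2.1 mM, against 0.58, 0.64, 0.22 and 0.83 at 0 mM, with no overlap (-1.28, SE 0.223, adjusted p = 0.000636). At 3.5 mM both probe sets of Rbm25 were lower than at 2.8 mM and the difference was -0.06, 0.23 and 0.03.

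Clk1, one of the kinases that phosphorylate SR proteins, read 5.14, 4.34 and 4.29 at 2.8 mM, against 3.16, 4.53, 3.53 and 4.48 at 0 mM, a change of 0.66 that did not pass (adjusted p = 0.159). The brightest Clk4 probe set read 3.33, 2.97 and 2.86 at 2.8 mM, against -0.28, 2.81, 1.90 and 2.84 at 0 mM, with 0 mM replicate 1 far below the rest, and was not called. Its other probe set, 1427663_a_at, read 3.09, 2.90 and 2.68 at 2.8 mM, against 2.00, 2.19, 1.70 and 2.19 at 0 mM, and rose by 0.87 (SE 0.178, adjusted p = 0.00373), a call lost with spike level as a term. The brightest probe set of Tra2a had 0.74 at 2.8 mM (adjusted p = 0.0657) and Tra2b 0.31 (adjusted p = 0.385). Of the 6 Tra2a probe sets 1 was called: 1442886_at read 0.83, 1.22 and 1.32 at 3.5 mM, against 2.39, 2.26 and 2.33 at 2.8 mM and 2.19, 3.41, 2.03 and 3.52 at 0 mM. The 3.5 mM arrays were below both other groups and in the range of the lymphocyte, fibroblast and epithelial marker levels. The change was -1.67 against 0 mM (SE 0.301, adjusted p = 0.00124), called in every omission of an array but not with only the arrays of both doses (adjusted p = 0.0646). Against 2.8 mM it was -1.20 (SE 0.322, adjusted p = 0.0184; up to 0.069 without 2.8 mM replicate 2 or 3 or 3.5 mM replicate 1). Of the 5 Tra2b probe sets 1 was called: 1419543_a_at read 5.85, 5.53 and 5.46 at 2.8 mM, against 5.28, 4.70, 5.45 and 4.59 at 0 mM, above all 0 mM arrays (0.61, SE 0.194, adjusted p = 0.0467). That call was lost in 16 of the 25 omissions (adjusted p up to 0.163) and with spike level as a term. U2af1 read 5.71, 5.70 and 5.54 at 2.8 mM, against 4.25, 5.00, 5.65 and 4.86 at 0 mM, where replicate 3 alone lay within the 2.8 mM range, and was called (0.71, adjusted p = 0.0261). That call was lost on omission of 0 mM replicate 1 or 4 or any 2.8 mM array (adjusted p up to 0.0984). U2af2 was not called at any dose, its log2 changes running from -0.42 at 3.5 mM to 0.28 at 0.35 mM.

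One array set several values at 0 mM. On 0 mM replicate 1, 7 of the 169 probe sets read more than 2 log2 units below every one of the other 24 arrays, and 3 of these more than 3 units. Over all probe sets 282 and 123 did so on this array and 0 on any other. For Hnrnpdl, an hnRNP D relative, probe set 1424251_a_at read 0.61 there, against 5.86 on the next lowest array. Hnrnpf, which binds runs of G, had 1.41 against 6.00 on 1456664_x_at, and Srsf1, the founding SR protein, 1.29 against 5.22 on 1428099_a_at. Some other probe sets of the same genes were not low on that array: Srsf1 1453722_s_at was at 5.91, 4.83, 6.33 and 4.60 on replicates 1 to 4, and Hnrnpf 1423382_a_at at 5.74, 5.40, 5.97 and 5.39. The other probe sets concerned were of Srsf2, Srsf1, Clk4 and Hnrnpab, and the cause was not tested. The 3 named probe sets were called at none of the 7 doses in limma: Hnrnpdl 1424251_a_at had 1.68 at 2.8 mM (SE 0.851, adjusted p = 0.219). Other probe sets of these genes were called. Srsf1 1452430_s_at was higher at 1.4, 2.1 and 2.8 mM (1.75, 1.66 and 1.84, adjusted p = 0.0114, 0.00881 and 0.00519). Hnrnpdl 1449039_a_at was higher at 1.4 and 2.8 mM (0.57 and 0.68, adjusted p = 0.00645 and 0.00107). These calls held in every omission of an array but not with spike level as a term. Over the doses Srsf1 had 1 probe set called higher and 0 lower, Hnrnpf 1 and 0, and Hnrnpdl 1 and 2. The Hnrnpf call was that of 1437099_x_at at 1.4 mM (0.73, adjusted p = 0.0394), and it was lost without 0 mM replicate 1 (0.47, adjusted p = 0.0875). Leaving 0 mM replicate 1 out gave 2, 20, 0, 10, 22, 22 and 33 calls at the 7 doses from 0.14 to 3.5 mM, beside 0.0178%, 6.13%, 0.158%, 6.07%, 12%, 10.2% and 8.95% of all probe sets. Of these calls 2, 0, 0, 7, 10, 19 and 5 were higher and 0, 20, 0, 3, 12, 3 and 28 lower.

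**Figure D5:**
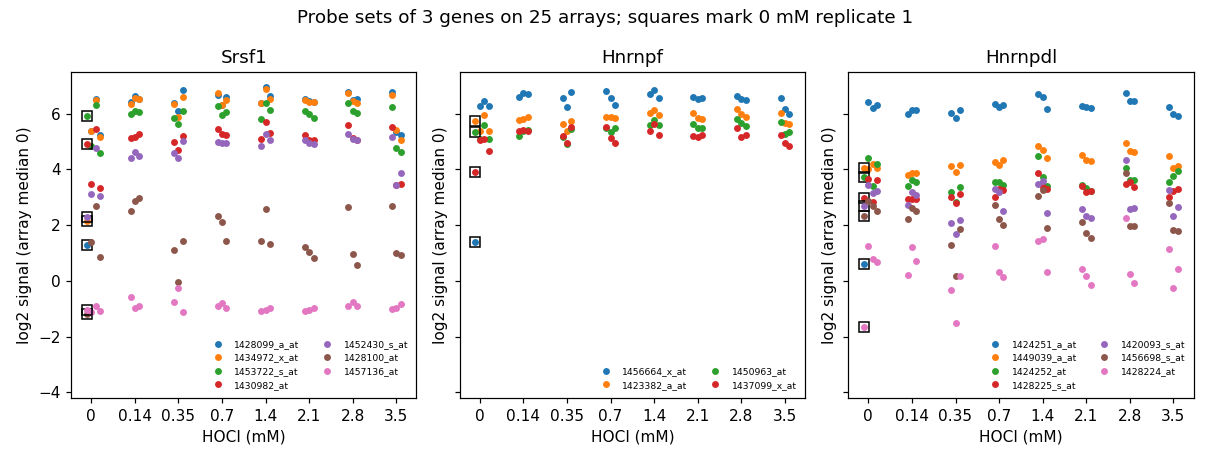
Log2 signal (vertical axis, array median 0) of all single-symbol probe sets of Srsf1, Hnrnpf and Hnrnpdl on 25 arrays against HOCl dose (horizontal axis, equally spaced), with squares around 0 mM replicate 1. On that array the brightest probe set of each gene reads 1.29, 1.41 and 0.61, against at least 5.22, 6.00 and 5.86 on all others.

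Genes of the wider splicing machinery were counted from lists of 147 genes outside the 49, of which 129 were measured, each by its brightest probe set. At the step to 3.5 mM 33 of the 129 were lower (25.6%) and 6 higher, with a median log2 change of -0.20; the shares over all 18193 genes were 5.33% and 8.81%, and 12 of the 49 were lower and 2 higher. The median was 0.07 over all genes and -0.51 for the 49. For the 129 the step count was not repeated on omission of single arrays or in the alternative fits. The list of SR kinases and SR-related proteins had the most falls, 14 of 27 (median -0.66), such as Srek1, an SR-related splicing regulator (-1.24, adjusted p = 0.0054), Dyrk1a, a nuclear kinase (-1.22, adjusted p = 0.0118), and Srrm1, a splicing coactivator (-0.81, adjusted p = 0.002). Of 17 U1, U2 and Sm core proteins, which share Luc7l3 with that list, 6 were lower, with Luc7l at -1.12 (adjusted p = 0.000671) and Sf1, the branch-point binding protein, at -0.48 (adjusted p = 0.00793). Of 28 tri-snRNP and Prp19 complex proteins 3 were lower and 1 higher, and Plrg1 and Crnkl1, which did not pass at the step (0.12 and 0.16), were higher than at 0 mM at 3.5 mM (0.67 and 0.66). Of 14 helicases and step factors 2 were lower and 1 higher, of 34 other regulators 6 and 3, with Celf1, an RNA-binding regulator, at -1.48 (adjusted p = 0.00011), and of 10 genes of the exon junction complex and nonsense-mediated decay 3 and 0. Against 0 mM 20 of the 129 were called at 3.5 mM, 9 higher and 11 lower, or 13 on omission of 3.5 mM replicate 2. Over all genes the share was 9.37%, with 4.54% higher and 4.83% lower.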

How the data were processed

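The authors deposited log2 signals per probe set; per the labels' protocols, cRNA from total RNA was hybridized to Affymetrix Mouse Genome 430 2.0 arrays and intensities were extracted with Array Assist, and RMA is named per the submitters' processing notes (versions and settings: not given in the sources used here). Base 2 is an inference from how far the values reach. Each deposited array has a median of 0 and quartiles differ, so the values show no quantile normalization. Probe sets were named from GEO's platform annotation.

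Of 45101 probe sets 64 controls were set aside. Dose means were fitted on the 25 arrays together by limma 3.58.1 under R 4.3.3 (17 residual and 2.99 prior degrees of freedom; 3.55 prior for differences within a gene), two-sided, with Benjamini-Hochberg adjustment over all probe sets of a comparison and a threshold of 0.05. No signal filter was used. A gene was represented by its brightest probe set. Genes and lists were chosen with earlier results of these data known. Described by name were the 11 genes listed by symbol, the 3 highest and 3 lowest called changes of the prefix-named genes at 0.35, 1.4, 2.1, 2.8 and 3.5 mM, the 8 differences with the lowest F test p, and up to 3 genes of each further list; genes named for the step to 3.5 mM and for 0 mM replicate 1 came from their values. The alternatives run were quantile normalization, a filter on mean signal below 0, a trended and robust prior, only the arrays compared, spike level as a term or its low level only, replicate block, omission of each array, omission of _x_at and _s_at probe sets, the mean of a gene's other probe sets as reference, and the actin 3′ to 5′ difference as a covariate of the differences within a gene. Replicate numbers did not pair the arrays: 19 of 84 same-number pairs had residuals correlated above 0.1 (median -0.0256). Simulated data had independent normal noise, with 50 probe sets changed at each fold and only at 3.5 mM. There the step to 3.5 mM recovered 80% of 2-fold and 100% of 4-fold changes, with 8 false calls among 45037 probe sets. The F test of differences within a gene was less sensitive. It called 13.3% of 30 differences changed 2-fold and 88.2% of 34 changed 4-fold, with 2 false calls. The simulation held no outlying arrays and no offsets shared by probe sets, so these figures need not hold for the real arrays.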

Additional observations from a re-analysis of the deposited data

Results flagged for a closer look

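Of 34 probe sets examined for a 0 mM array far from the other 3, 1 stood out. Hnrnpul2 probe set 1415765_at was at 2.95 on 0 mM replicate 2, with the others between 3.04 and 3.05. Its gap to the nearest was 0.891 of the range of the 4 arrays, above the critical value for 4 samples. The critical value lets chance pass about 1 in 20 groups, and the whole range was small beside the change of -0.68 at 3.5 mM.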

How the results depend on the processing

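At the step to 3.5 mM, set against 2.8 mM, 47 probe sets were called after quantile normalization, 49 without those of low signal, 45 with a trended and robust prior, 45 with a replicate block and 36 without _x_at and _s_at probe sets, with 3 or fewer higher in each, and 27 in a fit of both doses alone. The count of 169 probe sets against 0 mM moved by over 1.5 times as follows. Without probe sets of low signal it was 0 at 0.14 mM and 26 at 1.4 mM. With only the arrays of both doses it was 0, 3, 5, 9 and 13 at 0.14, 0.35, 1.4, 2.8 and 3.5 mM. With spike level as a term it was 0 at 1.4, 2.1 and 2.8 mM, as it was for other splicing genes and for differences within a gene; 7 differences were called at 3.5 mM and 23 in the F test. Clk4 1427663_a_at turned to -0.076 at 2.1 mM and -0.091 at 3.5 mM with this term. With low spike level arrays only, 0 were called at 0.14 mM and 3 other splicing genes at 0.35 mM. With a replicate block the count was 0 at 0.14 mM, 3 at 0.35 mM, 6 at 1.4 mM and 16 at 2.8 mM, for other splicing genes 1, 5, 15 and 21 at 0.35, 1.4, 2.1 and 2.8 mM, and for differences 15 at 2.8 mM; the numbers do not pair the arrays (5 of 24 arrays were closest to their own number). Without _x_at and _s_at probe sets it was 0 at 0.14 mM. The cause of these moves was not tested.

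Leaving out 1 array at a time, the calls of probe sets ranged over 0 to 3 at 0.14 mM, 0 to 33 at 0.35 mM, 0 to 9 at 0.7 mM, 3 to 28 at 1.4 mM, 8 to 37 at 2.1 mM, 11 to 43 at 2.8 mM, 24 to 35 at 3.5 mM, 27 to 60 at the step and 58 to 87 in the F test. Differences within a gene ranged over 0 to 1, 8 to 35, 0 to 3, 4 to 19, 13 to 35, 9 to 29 and 15 to 25 at the 7 doses, 6 to 20 at the step and 36 to 56 in the F test, and other splicing genes over 0 to 0, 0 to 14, 0 to 3, 4 to 24, 12 to 38, 14 to 40 and 13 to 25 at the 7 doses.

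Signal over background limits the dim probe sets: a filter on the mean signal changes which are tested.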
